A study of Danio rerio with 21 samples.

Results

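The comparison set zebrafish heart ventricles at 14 days after cryoinjury (14 dpi) against ventricles at 7 days after cryoinjury (7 dpi), with 3 RNA pools at each time. These 6 pools were chosen by the time in their sample labels, out of 21 pools in 7 groups of 3, and were compared directly, without the uninjured pools as reference. Both groups were adult fish of the TU strain, 10 to 11 months old, whose ventricle had been frozen locally at the same kind of surgery, and they differed in the time between surgery and dissection. Each pool held the RNA of 5 ventricles and filled 1 microarray, an Affymetrix Zebrafish Gene 1.0 ST. The other groups were 4 hours (4 hpi), 1, 3 and 90 dpi and uninjured hearts. They are used here for the signal filter, for the spread of each feature and for the level of a gene at other times. A pool covers the whole ventricle, wound and remote muscle together.

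A cryoinjury kills muscle, which neutrophils and macrophages clear while fibroblasts and epicardial cells lay down a temporary scar. Heart muscle cells next to the wound lose part of their mature organisation, copy their DNA and divide, and the new muscle replaces the scar over the following weeks. The interval between the pools compared here lies within the time when the scar is present and is being replaced by new muscle.

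The array reports a log2 signal for each feature, a set of probes along a transcript, so a difference of 1 is a doubling of signal. Of 75212 features, 35783 had a log2 signal above 6 in at least 1 of the 21 arrays and were tested, and 11687 named genes were among them, each taken at its feature with the highest mean signal. Among the tested features 5898 repeated the values of another feature on all arrays, so shares of features count some signals repeatedly. The median signal of an array was between 5.14 and 5.2, and a signal below that median is close to background, so a fall that ends there, or a rise that starts there, can be understated. Pearson correlations across the tested features were 0.968 to 0.971 between the 14 dpi pools, 0.970 to 0.976 between the 7 dpi pools and 0.951 to 0.965 between pools of different times. Markers of heart muscle were high at both times: tnnt2a, cardiac troponin T, averaged 12.81 at 14 dpi and 12.80 at 7 dpi, and the 3 other muscle markers were between 8.79 and 12.33. Of the genes listed for other tissues, 13 of 26 for skeletal muscle, 2 of 21 for liver, 2 of 18 for neurons and 3 of 9 for fat had enough signal to be tested, and none passed. Defining markers (mylpfa, myhz2 and pvalb2 of skeletal muscle, fga and ttr of liver, elavl3 and snap25a of neurons, plin1 and adipoqb of fat) were between 3.73 and 4.71 in both groups, below the array median. Single other members were high, such as the muscle creatine kinase ckma, rbp4 in the liver list, syt1a in the neuron list and fabp4a in the fat list, with means of 12.50, 10.62, 8.88 and 10.95 at 14 dpi, against 12.56, 10.84, 8.73 and 10.81 at 7 dpi. Of these, ckma was named outside the rule for named genes. The skin marker krt5 averaged 4.50 at 14 dpi, 5.63 at 7 dpi and 7.47 in uninjured hearts. No member of the list of 19 skin, gill and gut genes passed the test between 14 and 7 dpi (median log2 fold change -0.16). In 7 of them the pools did not overlap, all lower, which held for 19.8% of all named genes.

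More features were lower than higher at 14 dpi. At an adjusted p under 0.05 (limma, Benjamini-Hochberg over all 35783 features), 291 features were higher, which is 0.813% of those tested, and 561 were lower, which is 1.57%. Of these, 157 features (0.439%) were higher and 372 (1.04%) lower by more than 1.6-fold. At an adjusted p under 0.001, 2 features were called (0.00559%), both lower and neither with a gene name used here. The excess of falls depended on the pools: without 14 dpi replicate 3 there were 299 features higher and 299 lower, and without each of the other 5 pools in turn 26 to 74 were higher and 92 to 208 lower. In all, 852 features (2.38%) passed in either direction. Among named genes 97 were higher (0.83%) and 254 were lower (2.17%). The median log2 fold change was 0.02 over all tested features and -0.03 over the named genes, so the medians did not shift with the excess of falls among the called features. All 852 called features had 3 pools at 14 dpi on one side of the 3 pools at 7 dpi, a separation that was also found, in either direction, in 12.4% (higher) and 14.1% (lower) of all features tested. The calls rest on the spread shared by the 7 groups: in a fit of the 6 pools alone 5 features passed (2 higher, 3 lower), and 6942 had an unadjusted p under 0.05.

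**Figure D1:**
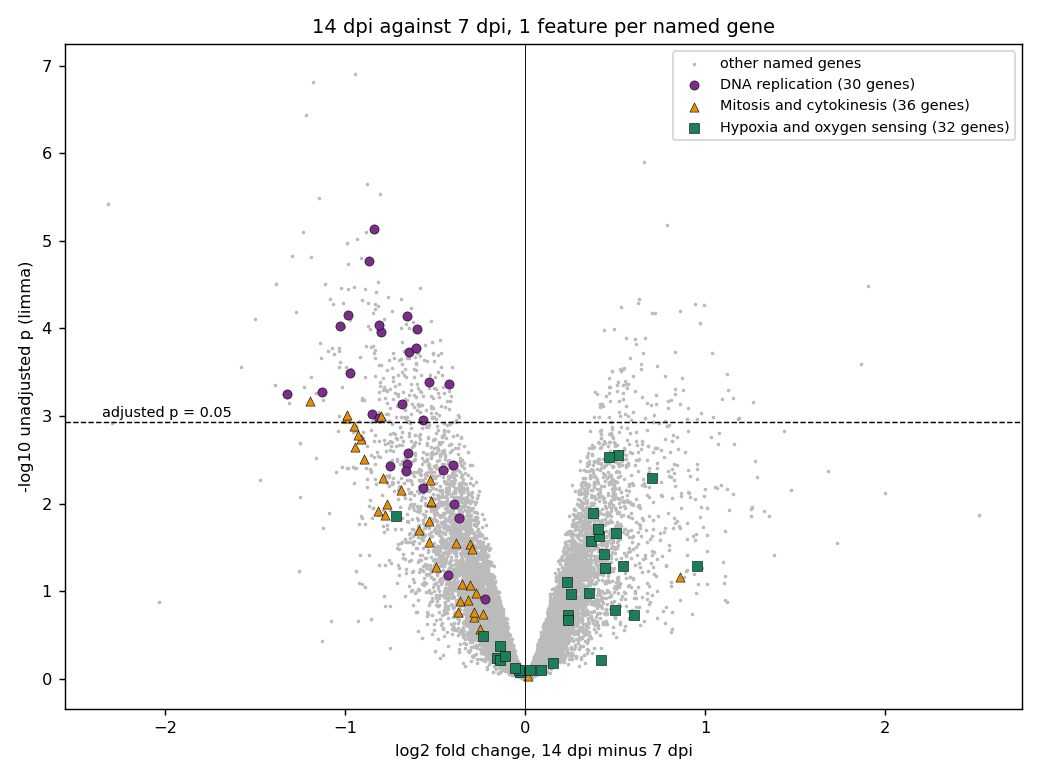
Each point is a named gene, with its log2 fold change (14 dpi minus 7 dpi) on the x axis and -log10 of its unadjusted limma p on the y axis, and the dashed line marks an adjusted p of 0.05. The 30 DNA replication genes (purple circles) all lie left of 0 and 19 of them lie above the line, 4 of the 36 mitosis genes (orange triangles) do, and none of the 32 hypoxia genes (green squares) reaches it.

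Genes of DNA replication were lower at 14 dpi. Of 30 tested members 19 fell, where 2.17% of all named genes did, and none rose. The median log2 fold change was -0.66, against -0.03 over all named genes. In 29 of the 30 genes every 14 dpi pool was below every 7 dpi pool, which held for 19.8% of all named genes. Against uninjured hearts the list's median log2 fold change was 0.30 at 14 dpi and 0.94 at 7 dpi. At 7 dpi 29 of the 30 members were called higher, where 21% of all named genes were. At 14 dpi 6 of the 30 were called higher, not far above the 12.7% of all named genes. These 2 comparisons share the uninjured pools with each other and a time each with the comparison made here. In a whole-ventricle pool, fewer dividing cells and less RNA per cell cannot be told apart.

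The replication clamp pcna, the ring that holds DNA polymerase on its template, had signals of 9.0, 8.96 and 8.57 at 14 dpi, against 9.85, 9.66 and 9.54 at 7 dpi. Every 14 dpi pool was thus lower than every 7 dpi pool, by 1.79-fold on average (log2 fold change -0.84 ± 0.13 SE, adjusted p = 0.00879). The mean in uninjured hearts was 8.66, and 14 dpi did not pass the test against it (adjusted p = 0.409). The single-strand binding protein gene rpa2 had 7.99, 7.97 and 7.73 at 14 dpi, against 8.76, 8.97 and 8.55 at 7 dpi, and the flap nuclease gene fen1, which trims Okazaki fragments, had 5.91, 6.05 and 5.86, against 7.00, 7.18 and 6.58. They fell by 1.83-fold and 1.97-fold (adjusted p = 0.0129 and 0.0172). The GINS subunits are part of the replicative helicase, and the 3 tested ones fell, where 1.57% of all features did. Their log2 fold changes were -0.81 ± 0.16 for gins2, -0.65 ± 0.13 for gins3 and -1.03 ± 0.20 for gins1 (adjusted p = 0.0188, 0.0172 and 0.019), the last of which was named after its values were seen. In gins2 and gins3 the 14 dpi pools were below the array median.

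Thymidylate synthase, tyms, which makes the thymidine nucleotide for DNA, was the member with the largest fall. Its signals were 7.5, 7.5 and 7.17 at 14 dpi, against 8.72, 9.17 and 8.23 at 7 dpi, a 2.49-fold fall (log2 fold change -1.32 ± 0.31, adjusted p = 0.0361). It remained above the uninjured mean of 6.11 at 14 dpi (log2 fold change 1.28 ± 0.31, adjusted p = 0.0118).

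The list kept a negative median without any 1 pool, but the count of calls did not keep its size. The list median was between -0.78 and -0.59 without each pool in turn, while 2 members passed without 7 dpi replicate 1, 3 without 7 dpi replicate 2, 10 without 7 dpi replicate 3, 3 without 14 dpi replicate 1, 7 without 14 dpi replicate 2 and 9 without 14 dpi replicate 3.

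Histone and chromatin assembly genes stood among the 15 largest falls. The largest of all 15 was 4.97-fold, in si:rp71-77l1.1 (log2 fold change -2.31 ± 0.35, adjusted p = 0.00618). Its 14 dpi pools were at 5.67, 4.85 and 6.11, so 1 of them was below the array median. LOC100538242 followed at -1.575 ± 0.347 (adjusted p = 0.0272). Neither was among the 11 tested histone features. The H2A genes hist1h2a5 and hist1h2a10 encode a core histone that packages newly copied DNA. The first had 8.65, 8.92 and 8.19 at 14 dpi, against 9.91, 10.70 and 9.65 at 7 dpi, and fell by 2.83-fold (log2 fold change -1.50 ± 0.29, adjusted p = 0.0181). The second fell by 2.48-fold (-1.31 ± 0.32, adjusted p = 0.0397). A further copy, hist1h2a4, fell as well (-0.87 ± 0.16, adjusted p = 0.0156), and of 11 tested histone features 3 fell and none rose, where 1.57% of all features fell, with the replication-independent H3 genes h3f3c and h3f3d at -0.11 and -0.08 in their brighter features. Copies of H2A genes are nearly identical in sequence, so their probes can share signal and the 3 falls are not separate evidence. The histone chaperone gene asf1ba, which delivers histones to newly copied DNA, had 5.47, 5.48 and 5.03 at 14 dpi, against 6.73, 6.94 and 6.19 at 7 dpi (log2 fold change -1.29 ± 0.22, adjusted p = 0.0126). The fall was 2.45-fold, and its mean in uninjured hearts was 4.95.

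Mitosis genes were lower with fewer calls. Of 36 tested members 4 fell (cdk1, kpna2, spc25 and aurkb), none rose, 34 had a negative value and the median log2 fold change was -0.53. In 25 of the 36 every 14 dpi pool was below every 7 dpi pool, where 19.8% of all named genes were so placed and 2.17% were called lower. The kinase cdk1, which drives entry into mitosis, had 6.44, 6.66 and 5.91 at 14 dpi, against 7.58, 7.97 and 7.05 at 7 dpi, a 2.28-fold fall (log2 fold change -1.19 ± 0.29, adjusted p = 0.0386). The Aurora kinase gene aurkb, which corrects chromosome attachment, fell by 1.99-fold (adjusted p = 0.047), the nuclear import carrier gene kpna2 by 1.98-fold (adjusted p = 0.0462) and the kinetochore gene spc25 by 1.74-fold (adjusted p = 0.0467). In aurkb and spc25 the 14 dpi pools were below the array median. Against uninjured hearts 10 members were higher at 14 dpi and 27 at 7 dpi (12.7% and 21% of all named genes). The 4 calls are at the edge of the threshold: with the replicate number as a block, and without 5 of the 6 pools in turn, none passed, and 2 passed without 7 dpi replicate 3. The list of 23 G1 cyclins and cell cycle brakes had no call and a median of -0.23, and cdk2, the kinase of the G1 to S step, was at -0.86 ± 0.23 (adjusted p = 0.0557).

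**Figure D2:**
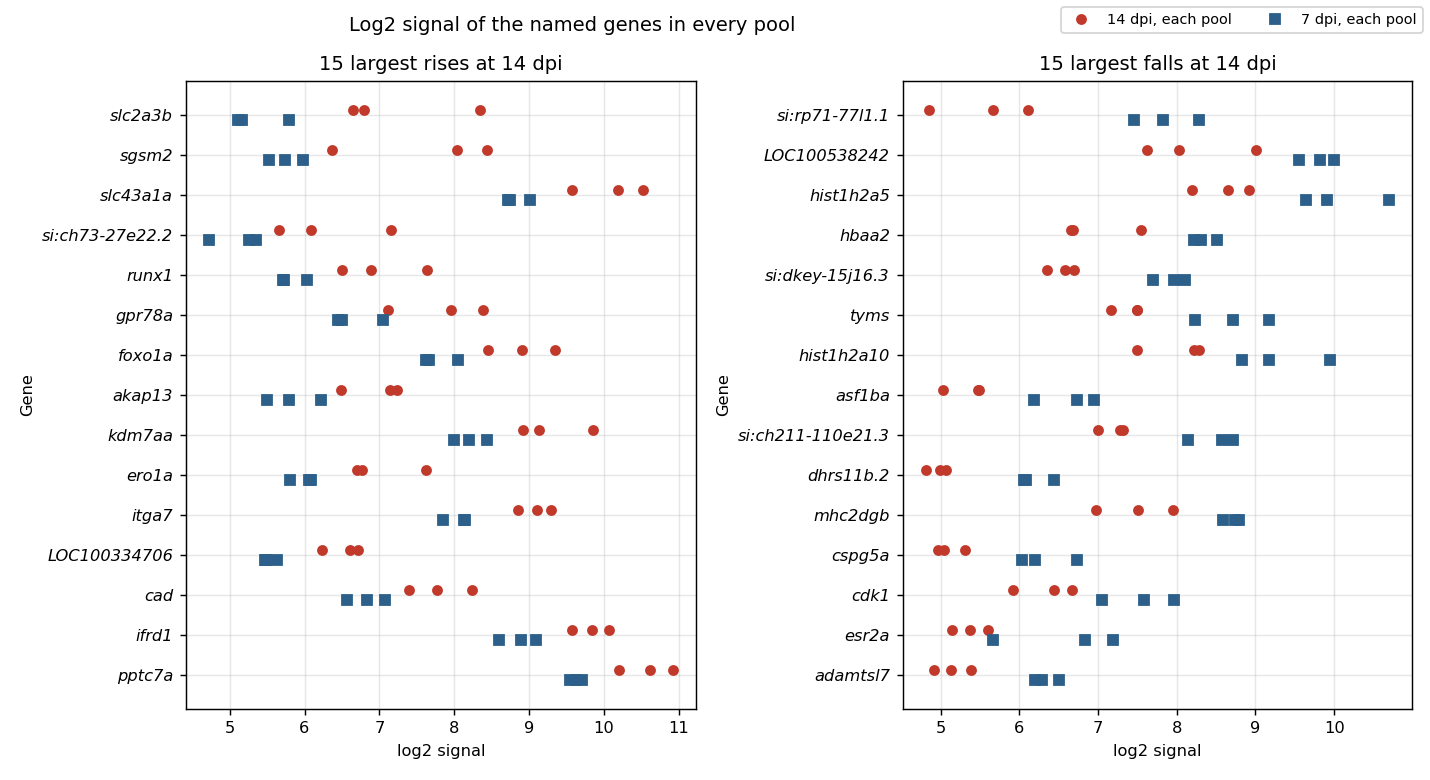
The log2 signal (x axis) of the 15 genes with the largest rises (left panel) and the 15 with the largest falls (right panel) at 14 dpi, with a red circle for each 14 dpi pool and a blue square for each 7 dpi pool. The rule for these 30 genes required that the 2 groups do not overlap. The 14 dpi values of dhrs11b.2, cspg5a and adamtsl7 lie near the array median of 5.14 to 5.2. Single 14 dpi pools of asf1ba (5.03), esr2a (5.15) and si:rp71-77l1.1 (4.85) lie near or below it too.

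Few macrophage genes passed the test, and those that did fell at 14 dpi. Of 24 tested members 2 fell, where 2.17% of all named genes did, none rose and 23 had a negative value, with a median log2 fold change of -0.52. The pools did not overlap in 11 of them, all lower, which held for 19.8% of all named genes. The complement gene c1qb, made by macrophages to tag debris for uptake, had 7.22, 7.28 and 7.14 at 14 dpi, against 8.32, 8.59 and 8.12 at 7 dpi, and fell by 2.19-fold (log2 fold change -1.13 ± 0.24, adjusted p = 0.0248). The phagocytic receptor gene havcr1, which binds the lipids exposed on dying cells, fell by 1.87-fold (-0.90 ± 0.22, adjusted p = 0.0382). The macrophage markers mpeg1.1 and csf1ra averaged 8.75 and 9.36 at 14 dpi, and 9.52 and 9.70 at 7 dpi. At both times the list was above uninjured hearts, with 14 members called higher at 14 dpi and 19 at 7 dpi (12.7% and 21% of all named genes). Neither c1qb nor havcr1 passed without 7 dpi replicate 1 or 2, or without 14 dpi replicate 2 or 3.

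Other white blood cell genes moved less. The 21 pan-leukocyte genes had no call and a median of -0.28, with laptm5, a lysosomal membrane protein of blood cells, at -0.57 ± 0.18 (adjusted p = 0.0967). Of the 21, 19 had a negative value. In 5 the pools did not overlap, all lower, which held for 19.8% of all named genes. The general leukocyte marker ptprc averaged 6.86 at 14 dpi and 6.83 at 7 dpi, coro1a averaged 8.12 and 8.13, and lcp1 8.30 and 8.43. Among 18 neutrophil genes the only call was timp2b, which is also in the list of metalloproteinase inhibitors. It was a fall, and 2.17% of all named genes were called lower. The lists of T and NK cells (6 tested, median -0.01) and B cells (5 tested, median -0.08) had no call.

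An antigen presentation gene was among the largest falls. The MHC class II beta chain gene mhc2dgb, which presents peptides to T cells, had 6.97, 7.96 and 7.51 at 14 dpi, against 8.74, 8.59 and 8.79 at 7 dpi (log2 fold change -1.23 ± 0.29, adjusted p = 0.034). The SD was 0.49 over the 14 dpi pools and 0.10 over the 7 dpi pools, and all 14 dpi pools lay below all 7 dpi pools. Its mean in uninjured hearts was 8.01, and neither time passed the test against it. Of 5 tested class II features, chaperones included, 4 had a negative value. Only mhc2dgb was called, where 1.57% of all features were called lower. The related mhc2d4b was at -0.63 ± 0.31 and mhc2daa at 0.37 ± 0.56 (adjusted p = 0.289 and 0.767). The class II chaperones cd74a and cd74b were at -0.32 ± 0.33 and -0.75 ± 0.21 (adjusted p = 0.641 and 0.0633). In the interferon and antigen presentation list irf3, a transcription factor of the interferon response, was the only call of 35 (-0.63 ± 0.15, adjusted p = 0.0348). Over all named genes 2.17% were called lower, so 1 call is near that share.

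Genes of the wound matrix fell singly rather than as a group. Fibronectin, fn1a, the matrix protein that bridges cells and fibrin in a fresh wound, had 8.95, 9.35 and 9.0 at 14 dpi, against 9.95, 10.30 and 10.01 at 7 dpi. The 14 dpi pools lay below all 7 dpi pools and the fall was 1.98-fold (log2 fold change -0.99 ± 0.16, adjusted p = 0.0101), yet fn1a remained above the uninjured mean of 6.61 (adjusted p = 1.28e-07). The microfibril gene mfap2, which supports elastic fibres, had 8.07, 8.98 and 8.63 at 14 dpi, against 9.46, 9.62 and 9.61 at 7 dpi, a 2.00-fold fall (adjusted p = 0.0191). They were the only calls among 49 matrix glycoproteins and crosslinkers, where 2.17% of all named genes were called lower. The median of that list was -0.11, and 17 members had a positive value. The paralog of fn1a, fn1b, named outside the rule for named genes, was at -0.11 and did not pass (adjusted p = 0.769). Of 15 collagens col11a1b, a fibril-forming collagen chain known from cartilage, fell by 1.53-fold (adjusted p = 0.0297), to 4.97, 5.3 and 5.08 at 14 dpi, around the array median. The fibrillar collagen markers col1a1a and col1a2 averaged 9.33 and 8.35 at 14 dpi, and 9.44 and 8.57 at 7 dpi. Against uninjured hearts 10 collagens were higher at 14 dpi and 13 at 7 dpi (12.7% and 21% of all named genes).

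The inhibitor timp2b, which blocks matrix metalloproteinases, had 9.11, 8.65 and 9.55 at 14 dpi, against 9.83, 10.30 and 10.10 at 7 dpi (log2 fold change -0.97 ± 0.19, adjusted p = 0.0183). No other member of the list of 20 metalloproteinases and inhibitors passed, where 2.17% of all named genes were called lower. The level of timp2b was 11.55, 11.51 and 11.22 at 4 hpi, 1 dpi and 3 dpi and 7.78 at 90 dpi. The fall from 7 to 14 dpi thus lay within a decline that ended near the uninjured mean of 7.54. The secreted adamtsl7, of the ADAMTS-like family, had 5.13, 4.92 and 5.39 at 14 dpi, against 6.29, 6.51 and 6.20 at 7 dpi (adjusted p = 0.0126), after 8.23 at 3 dpi.

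Epicardial and fibroblast genes were lower where they were called. The epicardium is the outer cell layer of the heart, which covers the wound and sends cells into it. Of 26 tested members of its list 2 fell, where 2.17% of all named genes did, none rose, and the median log2 fold change was -0.30. The transcription factor gene wt1b, a marker of activated epicardium, had 8.37, 8.42 and 8.56 at 14 dpi, against 9.11, 9.46 and 8.91 at 7 dpi (log2 fold change -0.71 ± 0.18, adjusted p = 0.0469). The chemokine gene cxcl12a, which guides migrating cells, fell by 1.6-fold (-0.68 ± 0.14, adjusted p = 0.0225). Under 14 alternative fits wt1b kept its call in 5 and cxcl12a in 8. Values in the list ran from -1.13 to 0.96, and the genes at both ends did not pass. The markers tbx18 and tcf21, which label the layer in the resting heart too, averaged 8.37 and 8.73 at 14 dpi, and 9.03 and 9.21 at 7 dpi. Among 18 fibroblast and pericyte genes, the growth factor midkine a (mdka) had 9.51, 9.77 and 9.86 at 14 dpi, against 10.38, 10.55 and 10.42 at 7 dpi, a 1.67-fold fall (adjusted p = 0.0168), and the secreted chaperone clusterin (clu) fell by 1.61-fold (adjusted p = 0.0253). These were the only calls of the fibroblast list, where 2.17% of all named genes were called lower. Its median was -0.06, and 8 of the 18 members had a positive value. The fibroblast marker pdgfra averaged 8.72 at 14 dpi and 8.81 at 7 dpi.

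Adult globins were lower at 14 dpi. The alpha globin gene hbaa2 had 7.54, 6.66 and 6.68 at 14 dpi, against 8.31, 8.22 and 8.52 at 7 dpi, a 2.62-fold fall (log2 fold change -1.39 ± 0.32, adjusted p = 0.033). The beta globin gene hbba2 had 9.09, 8.61 and 8.74 at 14 dpi, against 9.83, 9.82 and 10.08 at 7 dpi, a 2.13-fold fall (-1.09 ± 0.23, adjusted p = 0.0244). Unlike the replication genes, both were also below uninjured hearts at 14 dpi (adjusted p = 0.0145 and 0.00305). The embryonic globins hbae4 and hbbe2 were at -0.08 and 0.24 and did not pass, and alas2, the first enzyme of haem synthesis in red cells, averaged 9.81 at 14 dpi and 9.87 at 7 dpi. Of 16 red cell genes these 2 globins were the only calls, where 2.17% of all named genes were called lower. The list median was -0.08.

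**Figure D3:**
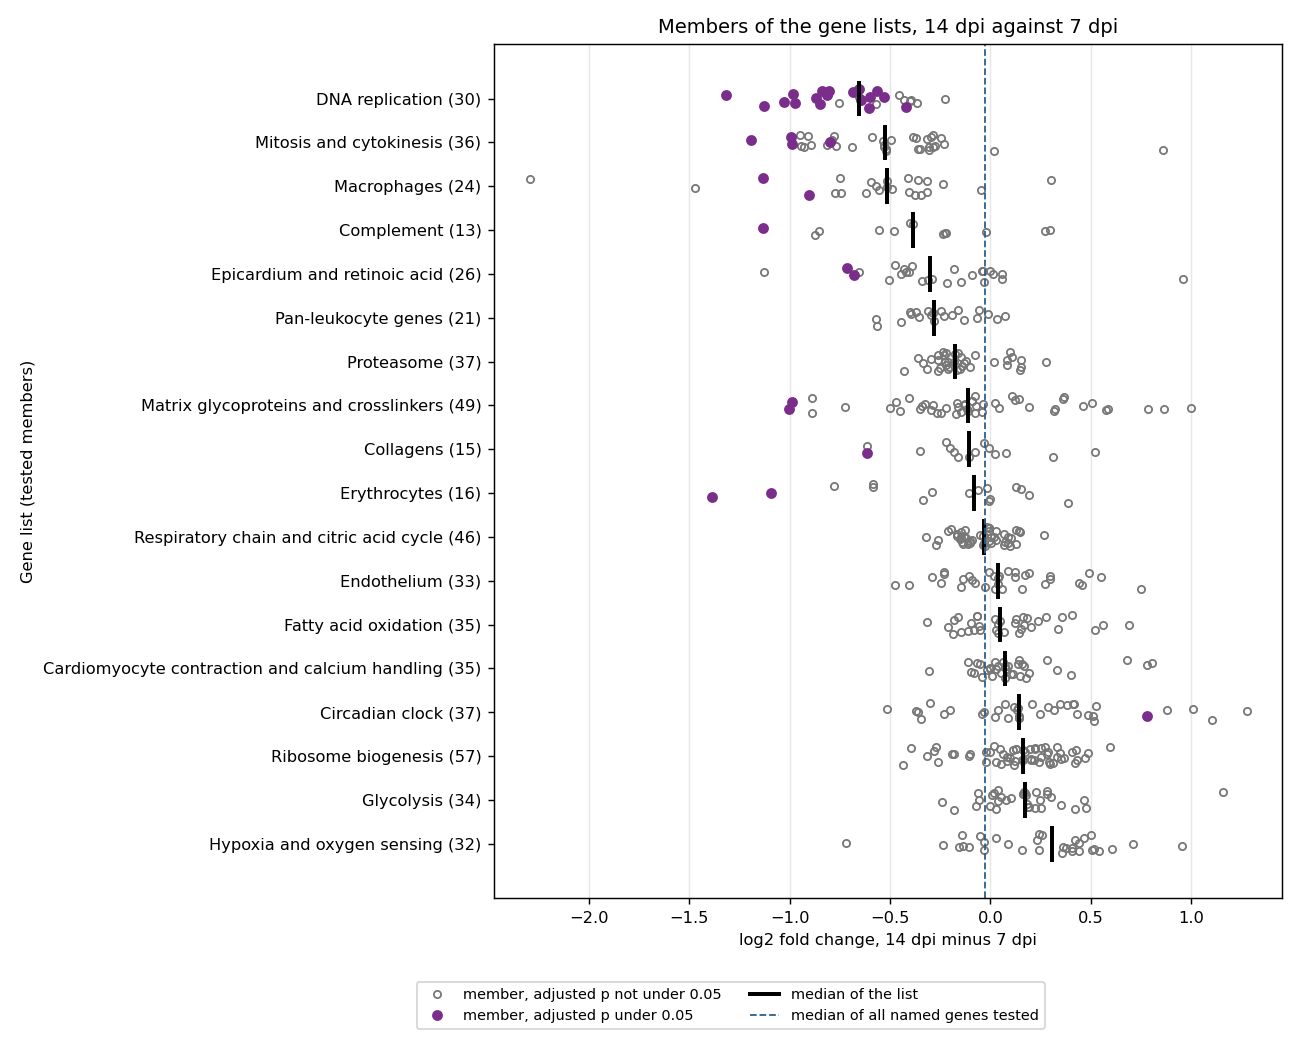
Each circle is a tested member of a gene list, placed at its log2 fold change (x axis, 14 dpi minus 7 dpi), filled where its adjusted p was under 0.05. The black bar is the median of the list and the dashed line the median of all named genes (-0.03). Medians run from -0.66 for DNA replication to 0.31 for hypoxia and oxygen sensing, and per2 in the clock list is the only filled circle right of 0 among the lists drawn, which leave out the signalling list of wnt2bb.

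The largest rise among the named genes that passed the test was in slc2a3b, a glucose transporter of the cell membrane. Its signals were 8.35, 6.65 and 6.79 at 14 dpi, against 5.11, 5.8 and 5.17 at 7 dpi, so that the groups did not overlap and 14 dpi replicate 1 stood highest. The rise was 3.74-fold (log2 fold change 1.90 ± 0.34, adjusted p = 0.0153). It was 1.36 on the log2 scale at the lowest when each pool was left out in turn. Uninjured hearts had a mean of 4.34, and the transporter was at 8.68 at 4 hpi, 7.32 at 1 dpi and 6.52 at 3 dpi, so the 14 dpi rise followed a decline over the 4 earlier times. Among the 6 other tested features of this transporter family none passed, and slc2a1b, the brightest of them, was at 0.47 ± 0.14 (adjusted p = 0.0772).

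The forkhead factor foxo1a, a transcription factor held out of the nucleus by insulin signalling, had 9.34, 8.46 and 8.91 at 14 dpi, against 7.62, 8.04 and 7.66 at 7 dpi (log2 fold change 1.13 ± 0.26, adjusted p = 0.0348). A second feature of the same gene rose by a like amount (1.03 ± 0.19, adjusted p = 0.0153). Its paralogs foxo1b, foxo3a, foxo3b and foxo4 had values from -0.25 to 0.71 and did not pass. The factor runx1, known from blood stem cell formation, had 7.64, 6.89 and 6.5 at 14 dpi, against 5.71, 6.04 and 5.73 at 7 dpi (1.18 ± 0.30, adjusted p = 0.0474), and its second feature rose too (0.72 ± 0.19, adjusted p = 0.0495). Both calls of runx1 were just inside the threshold, and the first passed in 1 of the 6 fits without 1 pool, the one without 14 dpi replicate 3.

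Further rises were in transporter and enzyme genes. The neutral amino acid transporter slc43a1a had 10.51, 10.18 and 9.58 at 14 dpi, against 9.01, 8.74 and 8.72 at 7 dpi, a 2.41-fold rise (log2 fold change 1.27 ± 0.31, adjusted p = 0.0388). That brought it to the level of uninjured hearts, whose mean was 10.41, and at 90 dpi the mean was 8.73. The pyrimidine synthesis enzyme cad rose by 1.97-fold (0.98 ± 0.25, adjusted p = 0.0452), unlike the DNA nucleotide gene tyms. The oxidase ero1a, which forms disulfide bonds in secreted proteins, rose by 2.06-fold (adjusted p = 0.0469), and the mitochondrial phosphatase pptc7a by 1.94-fold (adjusted p = 0.048). In slc43a1a, cad, ero1a and pptc7a 14 dpi replicate 1 was the highest pool, as in most of the 15 largest rises. Without that pool 39 features were higher at 14 dpi, and without 7 dpi replicate 1 there were 26, against 291 with all pools.

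The Rab regulator sgsm2 had 8.43, 8.04 and 6.36 at 14 dpi, against 5.74, 5.98 and 5.52 at 7 dpi, and its 3.64-fold rise (log2 fold change 1.86 ± 0.41, adjusted p = 0.0268) rested on 14 dpi pools with an SD of 1.1 on the log2 scale. The histone demethylase kdm7aa rose by 2.13-fold (adjusted p = 0.0379), the orphan receptor gpr78a by 2.23-fold (adjusted p = 0.0375) and the transcriptional co-regulator ifrd1 by 1.96-fold (adjusted p = 0.0188). In these genes too 14 dpi replicate 1 was the highest pool.

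A pair of integrin alpha chains rose. Integrins hold cells to the matrix, and itga7 encodes the chain of the muscle laminin receptor. It had 9.10, 8.85 and 9.29 at 14 dpi, against 8.14, 7.85 and 8.13 at 7 dpi, a 2.05-fold rise with little spread in either group (log2 fold change 1.04 ± 0.22, adjusted p = 0.0244). Its paralog itga5, the chain of the fibronectin receptor, had 10.70, 10.68 and 10.28 at 14 dpi, against 9.67, 9.97 and 9.43 at 7 dpi (0.86 ± 0.17, adjusted p = 0.0168), while its ligand gene fn1a fell. The 8 other tested integrin alpha features had values from -0.35 to 0.14 and did not pass. Over all features 0.813% were called higher.

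Signalling lists held few calls. Of 69 genes of the Notch, Wnt, Fgf, Pdgf and Neuregulin pathways, the ligand gene wnt2bb rose (8.99, 8.68 and 8.68 at 14 dpi, against 8.08, 7.90 and 7.75 at 7 dpi, log2 fold change 0.87 ± 0.20, adjusted p = 0.0298). The intracellular Wnt inhibitor nkd1 fell (-0.74 ± 0.16, adjusted p = 0.0272), as did mdka. Among all named genes 0.83% were called higher and 2.17% lower, so these calls are near those shares. Of 37 genes of Tgf-beta, Bmp and activin signalling none passed, the median was 0.16, and the largest values were 0.84 ± 0.25 for skia, a repressor of the pathway, and -0.67 ± 0.23 for id4, a Bmp target (adjusted p = 0.0831 and 0.116).

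Clock genes stood on the higher side, with 1 call among 37, where 0.83% of all named genes were called higher. The core repressor gene per2, which light also induces in zebrafish, had 9.45, 8.90 and 8.68 at 14 dpi, against 8.27, 8.28 and 8.14 at 7 dpi (log2 fold change 0.78 ± 0.20, adjusted p = 0.0489). Of 37 tested members 12 had non-overlapping pools with 14 dpi higher, where 13.2% of all named genes did, and the list median was 0.14. The level of per2 in uninjured hearts was 9.44.

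Lists of energy use and muscle function had no call in either direction. The 32 genes of hypoxia and oxygen sensing had the highest list median, 0.31, and 23 positive values, of which 9 had non-overlapping pools, where 13.2% of all named genes did in that direction. The mean deviation of the list's genes from their mean over all arrays was 0.52, 0.16 and 0.14 in the 14 dpi pools, against 0.09, 0.08 and -0.06 in the 7 dpi pools, with 14 dpi replicate 1 above the rest. The oxygen sensor egln3 had 10.43, 9.23 and 8.95 at 14 dpi, against 8.67, 8.67 and 8.40 at 7 dpi (log2 fold change 0.95 ± 0.46, adjusted p = 0.267), again with 14 dpi replicate 1 highest. On the lower side bnip4 was at -0.72 ± 0.26 (adjusted p = 0.149). Among 34 glycolysis genes (median 0.17) the regulator pfkfb3, which sets the pace of glycolysis, was at 1.16 ± 0.32 (adjusted p = 0.065). The 35 genes of contraction and calcium handling had a median of 0.07, and 16 of them had non-overlapping pools with 14 dpi higher, which held for 13.2% of all named genes. There the potassium channel gene kcnh6a was at 0.80 ± 0.23 and the sarcomere gene tcap at 0.78 ± 0.30 (adjusted p = 0.0729 and 0.169). The 46 respiratory chain and citric acid cycle genes had a median of -0.03 with values from -0.32 to 0.27, the narrowest range of the lists with at least 30 tested genes, and the 35 fatty acid oxidation genes a median of 0.05. A test that misses the threshold does not show that these genes were alike at both times.

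Of the 36 immediate early and stress transcription factors none passed, although nr4a3, an orphan nuclear receptor, had the largest positive value of any list member. Its signals were 10.42, 10.1 and 9.4 at 14 dpi, against 8.09, 7.34 and 8.49 at 7 dpi, a log2 fold change of 2.00 ± 0.66 (adjusted p = 0.113). The groups did not overlap, and the SE comes from the spread in all 7 groups. The stress factor atf3 was likewise at 1.32 ± 0.47 (adjusted p = 0.141).

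**Figure D4:**
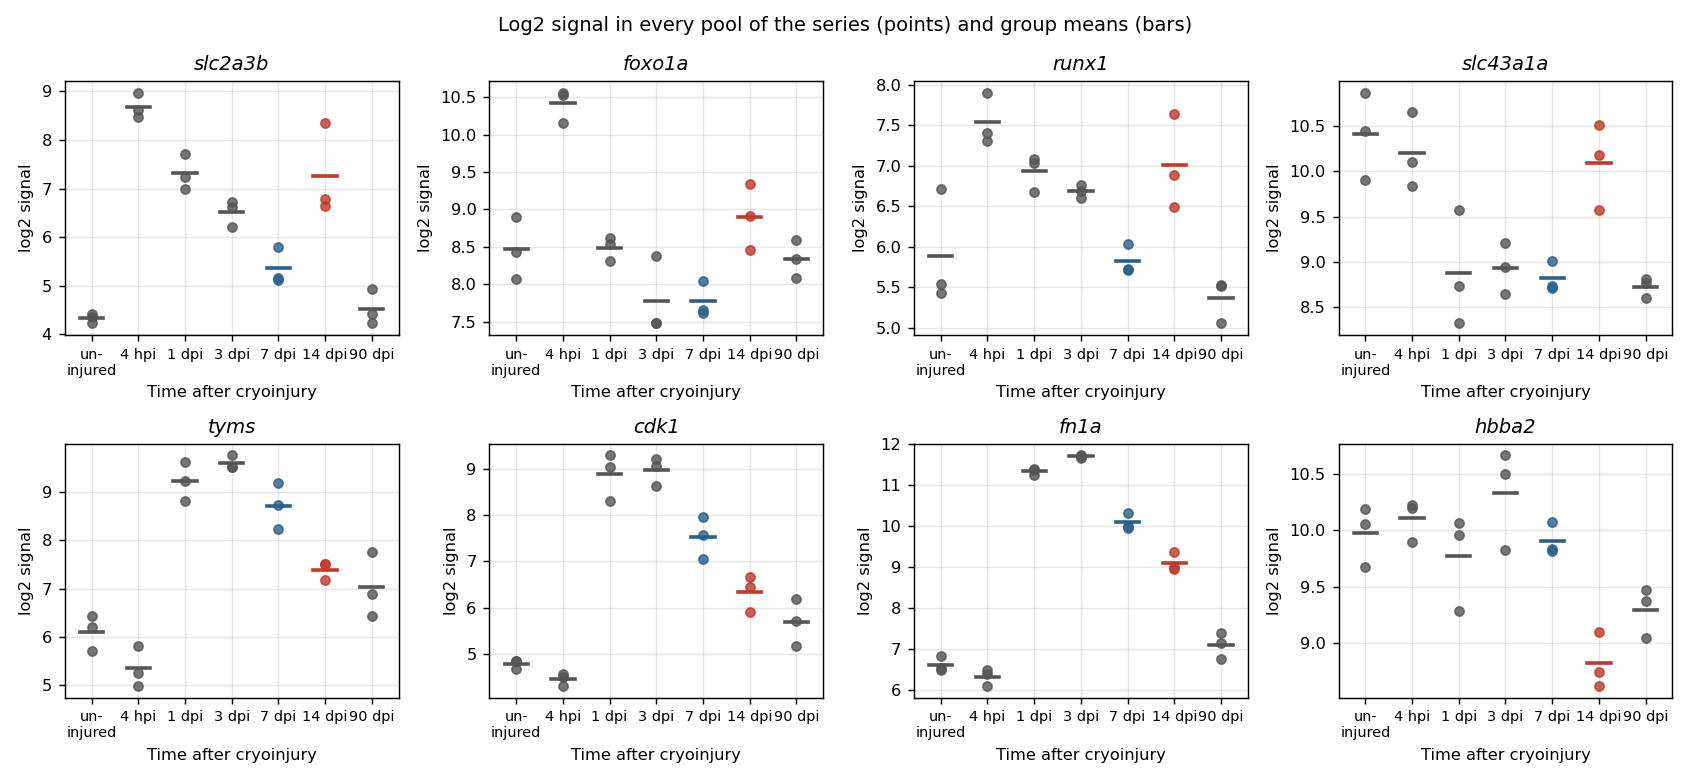
The log2 signal (y axis) of 8 genes in every pool of the series, with points for pools and bars for group means, 7 dpi in blue, 14 dpi in red and the other times in grey. In slc2a3b, foxo1a and runx1 the 4 hpi mean is the highest of the series, tyms, cdk1 and fn1a peak at 3 dpi and are lower at 7 and again at 14 dpi, and hbba2 has its lowest mean at 14 dpi.

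Levels at the other times showed where the called genes stood in the rest of the series. These pools are not part of the comparison, although they share the estimate of spread and count in the signal filter. A gene low in the 6 compared pools could be tested through its signal at another time. One such gene was gins2, with means of 4.78 at 14 dpi, 5.60 at 7 dpi and 6.71 at 3 dpi. With the filter on the 6 pools alone, 50 of the 54 named calls were tested. The part of the filter in the shares below was not tested. Of the 97 genes higher at 14 than at 7 dpi, 52 (53.6%) were higher at 4 hpi than in uninjured hearts and 7 (7.22%) were lower, where 22.8% and 27% of all named genes were. At 3 dpi 9 (9.28%) were higher and 47 (48.5%) lower than in uninjured hearts, against 29.5% and 19.7% of all named genes. Of the 254 genes lower at 14 than at 7 dpi, 215 (84.6%) were higher at 3 dpi and 5 (1.97%) lower than in uninjured hearts, and 21 (8.27%) were higher and 110 (43.3%) lower at 4 hpi. At 90 dpi 60 of them (23.6%) were higher than in uninjured hearts, where 13.5% of all named genes were.

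The 2 times differed in their own distance from uninjured hearts. Of all 11687 named genes, 1482 (12.7%) were higher at 14 dpi and 2453 (21%) at 7 dpi, in comparisons that share the uninjured pools. The genes that rose or fell were chosen on the difference between the 2 times, so an unequal distance from uninjured hearts follows from that choice, and their values are a description of where the levels lay. Of the 254 that fell, 58 were higher than in uninjured hearts at 14 dpi and 207 at 7 dpi. The 97 that rose had a median log2 fold change against uninjured hearts of 0.21 at 14 dpi and -0.39 at 7 dpi.

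The called genes differed in the length of genome they span, introns included. The median span was 53.6 kb for the genes that rose (94 of 97 with a span in RefSeq), 8.83 kb for those that fell (253 of 254) and 19.1 kb for all named genes tested (11429 of 11687). When all genes were divided by span into 5 classes of equal size, the median log2 fold change was -0.16 in the class of shortest genes, -0.10, -0.03 and 0.04 in the next 3, and 0.10 in the class of longest genes. Among the shortest genes 0.131% rose and 5.03% fell, and among the longest 2.06% rose and 0.7% fell. All 3 pools of 14 dpi were below all 3 pools of 7 dpi in the median of the shortest genes and above them in that of the longest. Gene span thus moved with the result, and its part in the calls was not tested. Set against the median of their own span class, the DNA replication genes had a median of -0.61, the mitosis genes -0.50, the macrophage genes -0.42 and the hypoxia genes 0.30. Over all 45 lists that step moved the median by -0.10 to 0.15, by more than 0.1 in 9 lists, and 8 medians changed sign, among them that of the respiratory chain list (0.04 against -0.03 without the step).

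**Figure D5:**
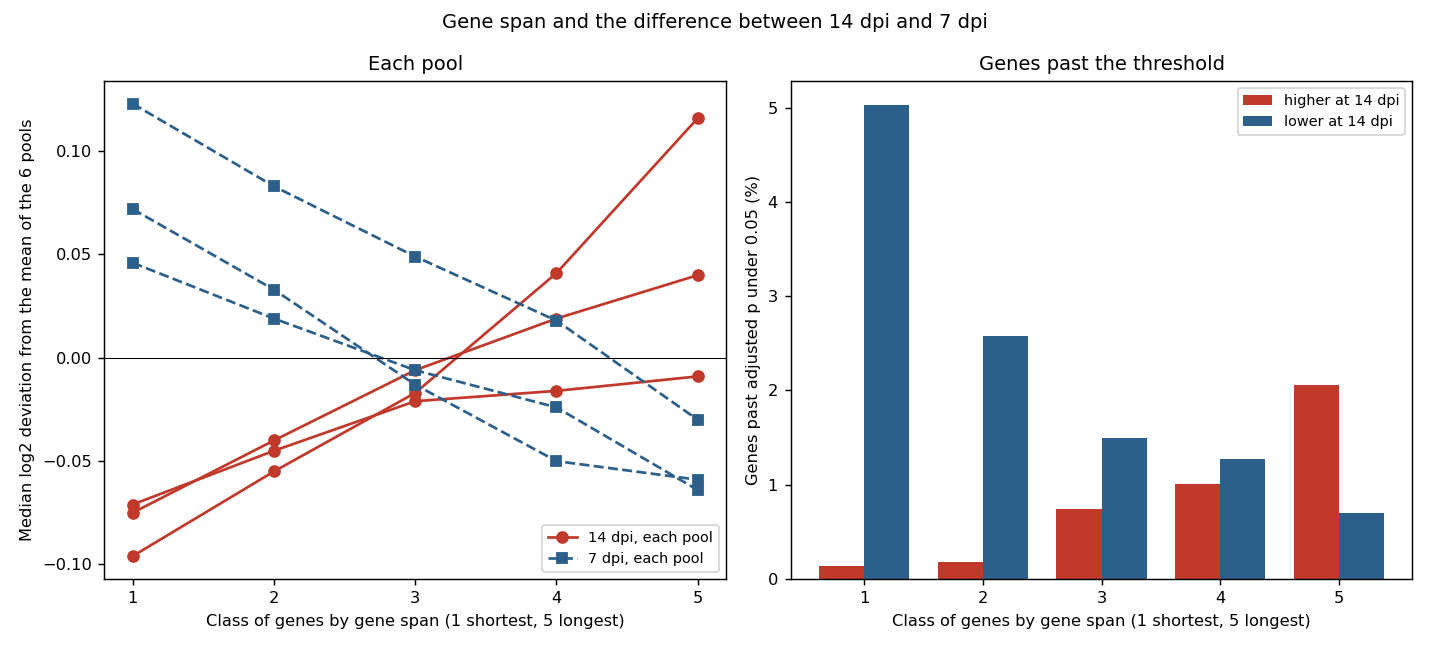
Genes are grouped into 5 classes of equal size by the length of genome they span (x axis, shortest at left). The left panel plots, for each pool, the median deviation of log2 signal from the mean of the 6 pools, with the 14 dpi pools (red) at -0.10 to -0.07 and the 7 dpi pools (blue) at 0.05 to 0.12 for the shortest genes, and the right panel plots the percentage of genes in each class that were higher (red) or lower (blue) at 14 dpi at an adjusted p under 0.05.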

How the data were processed

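Ventricles were pooled by 5 for each of the 21 samples. The authors turned the array scans into log2 signals by robust multi-array averaging (RMA) in Partek Genomics Suite, as the labels and the methods say. No further normalization was applied to the deposited log2 table, which holds 0 columns of no sample. Symbols were read from the platform annotation, where 20806 features have 1 gene symbol, 855 have several and 53551 have none. Of the features tested, 12313 carried 1 symbol, 494 several and 22976 none.

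Features with a log2 signal above 6 in at least 1 array were fitted in R 4.3.3 with limma 3.58.1 (1 mean per group, moderated variances, 14 residual degrees of freedom). The contrast was 14 dpi minus 7 dpi, with Benjamini-Hochberg adjustment over all 35783 features. The methods name limma too. The 3 pools of a group hold different fish, and p-values measure the spread between such pools. Precision is limited by the number of arrays: with 3 pools a group the smallest exact two-sided p is 0.1, so the calls lean on variances shared across groups and features. A gene with several features was taken at the one with the highest mean over all arrays, and of 545 such genes none had called features that disagreed in direction. Genes were named by rule: the 15 largest called rises and falls with non-overlapping pools, up to 5 called members per list and direction by adjusted p, the 2 largest changes of a list without a call, and paralogs of the first kind. Genes named outside the rule are said to be so, apart from cell type markers, which came from a separate list. The 45 gene lists (1082 genes tested) and the members were chosen with earlier results of these data known. Gene spans came from RefSeq's table for the assembly GRCz12tu. Plots used matplotlib 3.10.9 in Python 3.11.15. The fit was tested on simulated data. The alternatives changed the filter on low signals, the scaling of arrays (quantile or median), the variance model, the samples fitted, the replicate block, the counting unit and each pool left out.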

Additional observations from a re-analysis of the deposited data

How the results depend on the processing

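The counts were 291 features higher, 561 lower and 529 changed over 1.6-fold. A fit of only the 6 pools gave 2, 3 and 5, adjusting p-values over 1 feature per named gene alone gave 126, 316 and 214, and an adjusted p under 0.001 gave 0 higher and 2 lower. Without each pool in turn the counts ranged from 26 to 299 higher, 92 to 299 lower and 123 to 447 over 1.6-fold, the lowest without 7 dpi replicate 1 (26 higher, 105 lower) and 7 dpi replicate 2 (74 higher, 92 lower) and the highest without 14 dpi replicate 3. Replicate numbers did not pair the pools: deviations of same-numbered pools from their group means correlated at 0.06, -0.11 and -0.02. The fit with the replicate block gave 222 higher, 441 lower and 424 over 1.6-fold, and 617 of the 852 features remained called. Other filters, quantile normalization, centring, and trend with robust variances gave 220 to 331 higher and 435 to 737 lower. Counting features with identical values once, an alternative chosen after seeing the data, gave 361 higher and 704 lower. Of the 54 genes past the threshold that the naming rule gave, none changed sign under the alternatives in which they were tested. Of these, 54 lost the call with only the 6 pools, 17 with the block, 19 with no filter and 21 to 42 without 1 pool, while quantile normalization lost 0. The cause of these losses was not tested. Signals near the array median can limit how far a fall is measured.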

Other observations

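Some called genes outside the rule for named genes were chosen after their values were seen. The glutathione peroxidase family member gpx7, an enzyme of protein folding in the endoplasmic reticulum, had the lowest p of the named genes together with rhno1, a gene of the DNA damage checkpoint. The signals of gpx7 were 5.70, 5.79 and 5.36 at 14 dpi, against 6.68, 6.79 and 6.92 at 7 dpi (log2 fold change -1.18 ± 0.14, adjusted p = 0.00138), and rhno1 was at -0.95 ± 0.11 (adjusted p = 0.00138). The pools of each group lay within a narrow range in both. Further cell cycle genes fell, among them MKI67 (-1.12 ± 0.27, adjusted p = 0.0382), cks1b (-1.14 ± 0.17, adjusted p = 0.00554) and the replication licensing inhibitor gmnn (-1.03 ± 0.22, adjusted p = 0.0244). The most clearly separated rise was sfpq, an RNA-binding splicing factor, with 9.12, 9.18 and 9.21 at 14 dpi, against 8.46, 8.60 and 8.48 at 7 dpi (0.66 ± 0.09, adjusted p = 0.00348).

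Glutathione transferases, which conjugate glutathione to reactive compounds, were lower: 5 of 12 tested features fell, where 1.57% of all features did, none rose, and 11 had a negative value. The family member gstm.3 had 8.53, 8.94 and 8.62 at 14 dpi, against 9.80, 9.92 and 9.84 at 7 dpi (log2 fold change -1.16 ± 0.27, adjusted p = 0.036), and had its highest mean of the series, 10.42, at 3 dpi. Developmental transcription factors also fell: tbx1 (-0.98 ± 0.18, adjusted p = 0.0153), sox9a (adjusted p = 0.0156), osr1 (-0.86 ± 0.22, adjusted p = 0.0493) and bnc2 (-0.69 ± 0.14, adjusted p = 0.0191). The 3 dpi means of tbx1, osr1 and bnc2 (7.72, 8.47 and 9.66) were above all their 7 dpi pools. Both sets were picked for how they moved, so their counts carry no test.

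Of the 852 called features 445 carry no gene symbol in the annotation used here and 29 carry several. The other 378 carry 1 symbol, with every called feature of a gene counted. The span of genes moved with time in the comparisons with uninjured hearts too: the class of longest genes minus that of shortest genes (5 classes) was -0.10 at 4 hpi, -0.18 at 1 dpi, -0.18 at 3 dpi, -0.22 at 7 dpi, 0.04 at 14 dpi and 0.09 at 90 dpi in median log2 fold change, in comparisons that share the uninjured pools.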
